A study of Mus musculus with 2 samples.

Results

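The genes described here are 9 that mark red blood cells: the embryonic globins Hba-x, Hbb-y and Hbb-bh1, the adult globins Hba-a1, Hbb-b1 and Hbb-b2, the haem synthesis enzyme Alas2, and the red cell membrane proteins Slc4a1 and Epb42. They were chosen by name, and every probe set that the platform annotation gives to 1 of these symbols alone was taken. That gave 16 probe sets for 8 of the 9 genes, out of 12393 genes on the array with such a probe set. The adult globin copies are so alike that 4 further probe sets carry several globin symbols. Hbb-b1 has only such a probe set. Those 4 are given as family signals and are assigned to no single gene.

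Haemoglobin is made of alpha-type and beta-type globin chains, each holding a haem group. In the mouse embryo, the first red cells come from the yolk sac and use the zeta chain (Hba-x) with the beta-type chains of Hbb-y and Hbb-bh1, and later red cells switch to the adult alpha and beta chains. The erythroid enzyme ALAS2 starts haem synthesis in red cell precursors. Band 3 (Slc4a1), an anion exchanger, and protein 4.2 (Epb42) tie the red cell membrane to its skeleton. Adult globin RNA persists in young circulating red cells after the nucleus has been lost, so a tissue with blood in its vessels carries some. The C57BL/6 strain carries the beta-globin haplotype with Hbb-bs and Hbb-bt, whereas Hbb-b1 and Hbb-b2 are the names of the adult genes of another haplotype.

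Gene expression was measured with Affymetrix arrays in teratomas, tumours of mixed tissue that pluripotent cells form in a host. The B6 ES pool is RNA of 2 tumours grown from C57BL/6 (B6) embryonic stem cells. The EiPS pool is RNA of 2 tumours, described as regressing, grown from EiPS cells, labelled as the induced pluripotent stem (iPS) line 1E12 of strain C57BL/6. In both groups the cells were placed under the skin of male B6 mice and the tumours were taken out in week 6. Each group has 1 array, so no difference below has a replicate check or a p-value, and the values compare these pools only. Host and tumour share the strain, so host blood and tumour-derived cells cannot be told apart on these arrays, nor can more red cells and more RNA per cell.

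The deposited signals had the same 2% trimmed mean on both arrays (500.2), a median of 179 for the B6 ES pool and 196 for the EiPS pool, and a lower quartile of 35.3 and 43.8. Low signals thus ran somewhat higher on the EiPS array. A signal floor of 25.8 was set from 71 probe sets of olfactory, vomeronasal and taste receptors, of which 5 exceeded it with B6 ES RNA and 10 with EiPS RNA. Where only 1 array exceeded this value, the other was raised to it, which makes the fold a lower bound ("at least"). Genes that exceeded it on neither array were left out of the comparison. Of 10962 genes measured in this way, the median log2 difference (EiPS pool minus B6 ES pool) was 0.07. Equal scaling of the array medians moved it to -0.06, and quantile normalization to 0.0012. Probe sets of 1 gene differed among themselves with an SD of 0.40 in their log2 differences, over 3805 genes, and 0.48 at signals under 100 on both arrays. It gauges measurement noise and leaves out variation between tumours.

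Promoters are printed for reference, those of Alas2, Hba-x and Hbb-y, which were measured with a probe set of their own, and those of Hba-a1 and Hbb-bs, whose transcripts belong to the family signals. Each is the 250 bases before the RefSeq start (build GRCm38.p6), 5′ to 3′ on the gene's strand. Capitals mark matches on either strand to sites of these kinds. Sites of GATA factors, which drive red cell genes, were searched as TGATAA and also with the spelling AGATAA. The box bound by the erythroid factor KLF1 was searched as CACCC, and the longer form CCACACCC contains it and is counted with it. The box of the general factor NF-Y was searched as CCAAT. The TATA box was searched as TATAAA and also with the spelling ATAAAA, and these can overlap each other and, in Alas2, the GATA match. The NF-E2 or AP-1 site was searched as TGACTCA on both strands. The windows are chrX:150547167-150547416 (plus strand) for Alas2, chr11:32276350-32276599 (plus) for Hba-x, chr7:103853208-103853457 (minus) for Hbb-y, chr11:32283422-32283671 (plus) for Hba-a1 and chr7:103827929-103828178 (minus) for Hbb-bs.
Alas2: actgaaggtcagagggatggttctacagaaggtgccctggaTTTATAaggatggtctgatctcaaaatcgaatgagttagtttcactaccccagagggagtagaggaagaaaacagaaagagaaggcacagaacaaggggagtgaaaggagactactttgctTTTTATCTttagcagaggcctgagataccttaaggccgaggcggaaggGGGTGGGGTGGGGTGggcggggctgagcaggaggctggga
Hba-x: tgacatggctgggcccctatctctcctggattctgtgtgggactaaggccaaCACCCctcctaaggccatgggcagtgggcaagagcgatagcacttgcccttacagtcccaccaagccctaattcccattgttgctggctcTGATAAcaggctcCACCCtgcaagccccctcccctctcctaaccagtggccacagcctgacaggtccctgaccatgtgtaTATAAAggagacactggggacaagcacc
Hbb-y: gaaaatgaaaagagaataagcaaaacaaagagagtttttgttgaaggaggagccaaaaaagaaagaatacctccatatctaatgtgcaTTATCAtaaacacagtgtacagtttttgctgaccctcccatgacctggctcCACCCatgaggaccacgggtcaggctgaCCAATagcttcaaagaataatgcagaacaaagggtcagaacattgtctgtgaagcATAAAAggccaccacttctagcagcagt
Hba-a1: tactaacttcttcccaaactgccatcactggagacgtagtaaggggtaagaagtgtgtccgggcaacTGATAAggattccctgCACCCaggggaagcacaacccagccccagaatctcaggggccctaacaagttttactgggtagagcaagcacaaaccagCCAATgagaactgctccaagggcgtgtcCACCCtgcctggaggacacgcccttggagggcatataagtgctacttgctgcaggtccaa
Hbb-bs: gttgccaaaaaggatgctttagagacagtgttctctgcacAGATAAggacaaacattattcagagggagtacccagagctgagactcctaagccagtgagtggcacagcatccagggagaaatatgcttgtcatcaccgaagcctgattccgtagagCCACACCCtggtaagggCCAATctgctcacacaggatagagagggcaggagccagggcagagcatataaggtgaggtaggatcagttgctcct

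The search ran over windows of 250 bases before to 50 after the start, and 8 of 12 globin and erythroid genes looked up had such a window, 5 of them among the 9 chosen genes. A GATA match was present in 7 of the 8 windows, where 18.6% of all 32851 RefSeq windows hold it. CACCC was present in 7 of 8 (57.5% of all windows), CCAAT in 5 of 8 (37.4%) and a TATA match in 5 of 8 (24.7%). The NF-E2 or AP-1 letters were found only in Hbb-bs, at bases 27 to 33 after the start and so outside the printed stretch (5.2% of all windows). Hba-x, Hbb-y and Hbb-bt each had a TATA match at bases -28 to -23. The Hba-a1 and Hba-a2 windows are near copies and do not count as independent. A match describes letters only, and binding was not measured.

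Every adult globin family signal was higher in the EiPS pool. The 3 probe sets for adult alpha-globin (annotated to both Hba-a1 and Hba-a2) had signals of 484 (B6 ES) and 2342 (EiPS), of 4670 and 12024, and of 4150 and 10733. They were 4.84-fold, 2.57-fold and 2.59-fold higher, with nearly the same fold from the brighter pair and a larger fold from the dimmer probe set. The probe set annotated to the 4 adult beta-globin symbols Hbb-bt, Hbb-bs, Hbb-b2 and Hbb-b1 had signals of 3341 and 10392, which is 3.11-fold higher. Of 562 measured probe sets with several symbols, 13% were past 2-fold higher in the EiPS pool. The log2 differences of 1.36 to 2.28 exceeded the SD between probe sets (0.40), which is not a test between the groups. Over quantile, equal-median and loess scaling, the 4 differences ranged from 1.24 to 2.30.

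**Figure D1:**
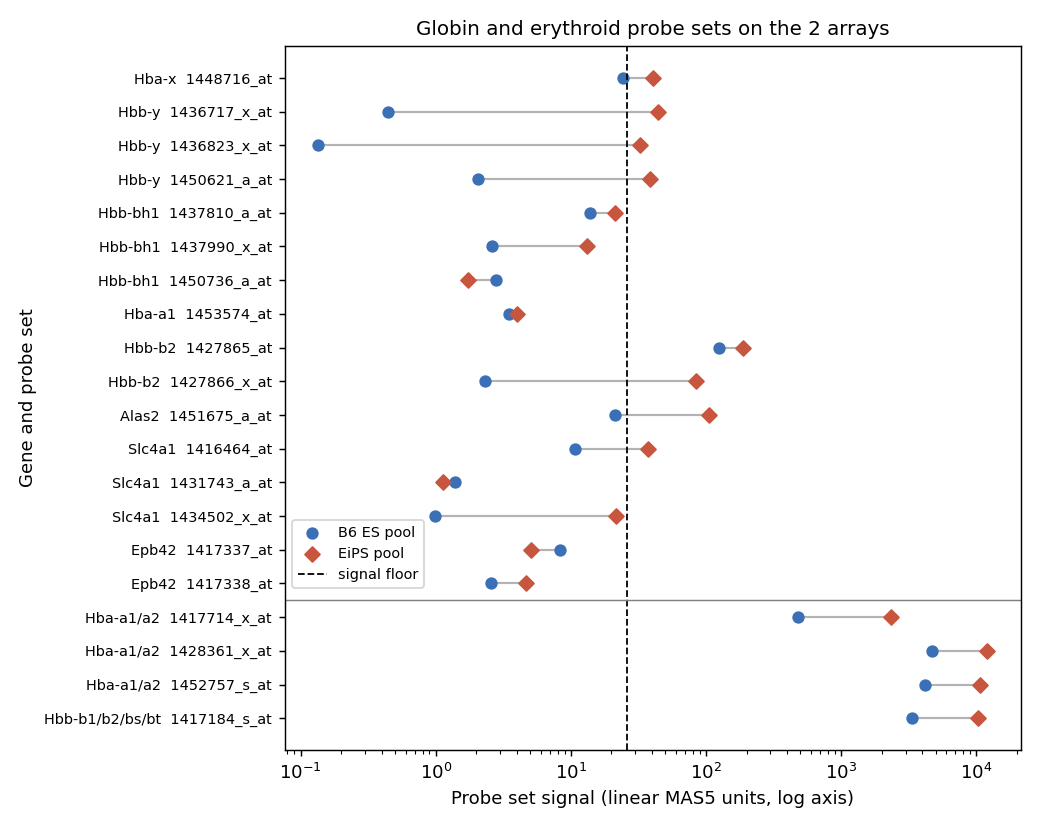
Signal of each probe set on the B6 ES array (circles) and the EiPS array (diamonds), on a log axis in linear MAS5 units, with the signal floor of 25.8 as a dashed line; there is 1 array per group and no error bar. The 4 family probe sets under the horizontal line sit far to the right of the floor on both arrays, while 15 of the 16 probe sets of single genes lie left of it on the B6 ES array.

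Probe sets of single genes gave much lower signals. Of the 16, 1 exceeded the floor in the B6 ES pool and 8 did in the EiPS pool. Of the 15 that did not exceed it in the B6 ES pool, 7 did in the EiPS pool, against 25.8% of all 3856 single-symbol probe sets in that position. Those 7 belong to 5 genes, and 3 of them to Hbb-y, so they are not independent. Of the 8 that did not exceed it in the EiPS pool, none did in the B6 ES pool, against 14.3% of all 3339 single-symbol probe sets in that position. With 8 probe sets, several of them from the same gene, none is close to that share. Without any floor, 13 of the 16 signals were higher on the EiPS array, where 55% of all single-symbol probe sets were.

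At the level of genes, 5 of the 8 were above the floor on 1 array or more, and 1 of these, Alas2, reached 2-fold higher in the EiPS pool, where 5.79% of all measured genes did. None reached 2-fold lower, where 3.05% of all measured genes did. Of the 5, 4, namely Alas2, Hba-x, Hbb-y and Slc4a1, exceeded the floor in the EiPS pool alone, which holds for 4.67% of measured genes. These 4 could be compared only through the array on which they were high, so their shared direction carries no weight of its own.

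Alas2 had the largest value of the 5 with this floor. Most of the 5 values are bounds and have no fixed order: with no floor the log2 difference was 4.23 for Hbb-y and 2.32 for Alas2, and with a floor of 100 that of Hbb-b2 (0.60) exceeded that of Alas2. The only Alas2 probe set had a B6 ES signal of 21.2, under the floor, and an EiPS signal of 105. It was at least 4.08-fold higher, and 0.821% of measured genes reached 4-fold in that direction. The bound depends on the floor: the log2 difference was 1.10 with a floor at the 98th percentile of the receptors (49.2) and 0.08 with a floor of 100. Alas1, the form of the enzyme used in other tissues, went the other way, with signals of 802 and 540. The 5 genes nearest to Alas2 in their pair of log2 signals were Trpc2 (26.1 and 105), Pmf1 (10.02 and 104), Myo7b (25.9 and 108), Lce1f (0.853 and 109) and Sgsm3 (11.4 and 102). Their Euclidean distances to Alas2 were 0.01 to 0.04 on the log2 scale. With 2 arrays, such nearness says only that the signals were alike.

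Among the embryonic globins, Hba-x and Hbb-y crossed the floor and Hbb-bh1 did not. Hba-x, the embryonic alpha-type chain, had signals of 24.2 and 40.8, higher in the EiPS pool by at least 1.58-fold. Its B6 ES signal lay just under the floor, so the bound is close to the measured ratio. Hbb-y, the embryonic epsilon-like beta chain, had 3 probe sets. Their B6 ES signals were 0.443, 0.135 and 2.07, and their EiPS signals were 44.1, 32.5 and 38.6. On the log2 scale they were higher by at least 0.77, 0.33 and 0.58. All 3 lay close together on the EiPS array and far under the floor on the other. The early embryonic beta chain Hbb-bh1 had B6 ES signals of 13.8, 2.60 and 2.79 and EiPS signals of 21.1, 13.2 and 1.75. All 6 were under the floor, so no fold is given. Every embryonic globin signal on the EiPS array was under 49.2, the 98th percentile of the receptors, and with the floor set there no embryonic globin was measured.

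The adult globins had few probe sets of their own, and these disagreed with each other. Hbb-b2 is the symbol given by the platform annotation, whereas the C57BL/6 strain of these cells and hosts carries Hbb-bs and Hbb-bt. Which adult beta-globin transcript gave the signals under the name Hbb-b2 was not tested. Hbb-b2 had signals of 124 and 188 on its first probe set, the only one of the 16 above the floor on both arrays. By this probe set it was 1.51-fold higher in the EiPS pool. Its log2 difference of 0.60 compares with an SD of 0.40 between probe sets. Its second probe set had signals of 2.32 and 83.9, at least 3.25-fold higher. With both probe sets averaged the log2 difference of Hbb-b2 was 1.15, so its side of the 2-fold line depends on the choice of probe set. The only Hba-a1 probe set had signals of 3.48 and 3.98, under the floor on both arrays, while the family signals for Hba-a1 and Hba-a2 were between 484 and 12024. The Hba-a2 probe set had signals of 2.58 and 36.7 (at least 1.42-fold higher).

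Of the 16 probe sets, 5 carry the suffix that Affymetrix gives to sets with probes matching other, similar sequences (_x_at). They are 2 of Hbb-y, and 1 each of Hbb-b2, Hbb-bh1 and Slc4a1. Signals were higher on the EiPS array for all 5, the array on which the adult globin family signals were also higher. How much of their signal came from related transcripts was not tested. The other Hbb-y probe set, without that suffix, also crossed the floor (2.07 and 38.6).

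The membrane protein genes were close to or under the floor. Slc4a1 had 3 probe sets, with B6 ES signals of 10.7, 1.39 and 0.986 and EiPS signals of 37.1, 1.13 and 21.6. Only the first crossed the floor, higher in the EiPS pool by at least 1.43-fold, and the second was slightly lower. Epb42 had signals of 8.36 and 5.11 on its first probe set and of 2.55 and 4.68 on the second, all under the floor.

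**Figure D2:**
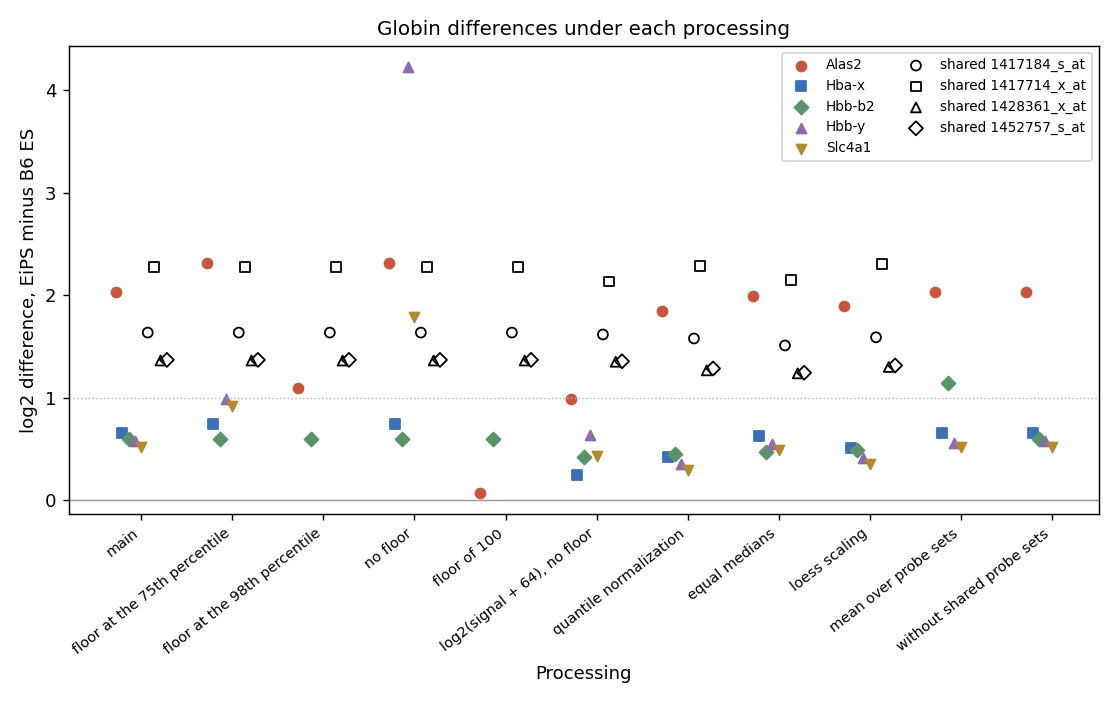
Log2 difference (EiPS minus B6 ES) of the 5 measured genes (filled) and the 4 adult globin family probe sets (open) under the main processing and the alternatives; the dotted line marks 2-fold and a missing point means that the gene was under the floor on both arrays or that the alternative removes the probe set. The family probe sets stay between 1.24 and 2.30, whereas Alas2 ranges from 0.08 to 2.32 and Hbb-y reaches 4.23 without a floor.

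Genes of the wider red cell programme went both ways in each list. In the list of haem synthesis and mitochondrial haem transport genes, 13 of 16 had a probe set and all were measured. None reached 2-fold, 9 were lower and 4 higher in the EiPS pool, and the median log2 difference was -0.13. Ppox was 1.48-fold higher, and Fech, the last enzyme of haem synthesis, was 1.49-fold lower by the brightest of its 4 probe sets, which ranged from -1.47 to 1.08. Iron uptake and storage genes had a median of -0.05 over 8 genes, with none at 2-fold. Steap3, Slc40a1 and Tfrc, the transferrin receptor, were 1.39-fold, 1.21-fold and 1.18-fold lower. In the list of other erythroid genes, 10 were measured, with a median of 0.07. That median turned to -0.05 with equal medians. The brightest Pklr probe set was 1.72-fold higher, while the other differed by -0.15. Car1, an erythrocyte carbonic anhydrase, was at least 1.68-fold higher, and Car2 was 2.002-fold lower.

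Membrane and skeleton genes of the red cell went both ways, with a median of -0.23 over 13 measured genes. Rhd, which carries a blood group antigen, was 2.13-fold higher (35.0 and 74.5). Ank1 and Tmod1 were 2.12-fold (751 and 354) and 2.14-fold lower (1481 and 692). Both are also expressed in striated muscle, and the muscle globin Mb was 6.02-fold lower (2698 and 448). The part of muscle in these differences was not tested. Of the remaining globins, Ngb, made in neurons, was 2.11-fold lower (121 and 57.1) and Cygb nearly equal (146 and 142). Rhag, Xk and Kel were under the floor on both arrays (named after their values were seen).

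Erythroid transcription factors had a median of 0.16 over 14 measured genes (-0.04 after quantile normalization). Of these, 11 were higher and 3 lower in the EiPS pool, where 56.2% of all measured genes were higher. Several of the 11 were lower after another scaling, among them Lyl1, Gata2 and Gfi1b under all 3 scalings. Bcl11a, which silences embryonic beta-type globins in adult red cells and is also made in neurons and B cells, was 2.37-fold higher (235 and 557), and Ldb1 2.19-fold higher (280 and 614). Lmo2, a partner of Ldb1 that is also made in endothelium, was 1.83-fold lower (625 and 342). Tal1, Cbfa2t3 and Zbtb7a were higher by 0.58, 0.55 and 0.50 on the log2 scale. These 3 and the factors that follow were named after their values were seen. Gata1 had 20.2 and 29.9, Klf1 42.3 and 35.5 and Gfi1b 40.3 and 42.3, and Nfe2 was under the floor on both arrays. Gata1, counted among the 11, exceeded the floor in the EiPS pool alone, so its direction carries no weight. It was under the floor on both arrays after quantile normalization. Gfi1b was lower in the EiPS pool after quantile, equal-median and loess scaling. Epor, the erythropoietin receptor, had 92.5 and 98.5, and was lower under the same 3 scalings.

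Genes for haem and haemoglobin clearance had 3 of 8 measured members past 2-fold higher in the EiPS pool and none past 2-fold lower. Over all measured genes these shares were 5.79% and 3.05%. Cd163, named after its values were seen, was under the floor on both arrays (9.20 and 1.87). Hpx, the plasma protein that binds free haem, had signals of 23.3 and 150, at least 5.82-fold higher. It is counted among the 3 but exceeded the floor in the EiPS pool alone, so its direction carries no weight. Of the 8, 7 exceeded the floor on both arrays, and of these only Hp and Hmox1 passed 2-fold. Hp (haptoglobin), which binds free haemoglobin, had 82.03 and 475, which is 5.79-fold higher. Hmox1, the inducible enzyme that breaks haem down, had 296 and 946, which is 3.198-fold higher. The remaining 5 measured genes of the list were within 1.41-fold. Hpx and Hp are also liver products. All 10 liver and yolk sac markers were higher in the EiPS pool, 8 of them by 2-fold or more (median 1.49, summed signal 11083 and 19808). Among all measured genes, 56.2% were higher by any amount and 5.79% by 2-fold or more. Serpina1b, Ahsg and Fgb exceeded the floor in the EiPS pool alone, so their direction carries no weight. Alb was 10.99-fold and Afp 3.58-fold higher. For Afp this is the brightest of 4 probe sets, whose log2 differences ranged from 0.19 to 1.85. The part of liver-like tissue in the Hp and Hpx values was not tested.

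**Figure D3:**
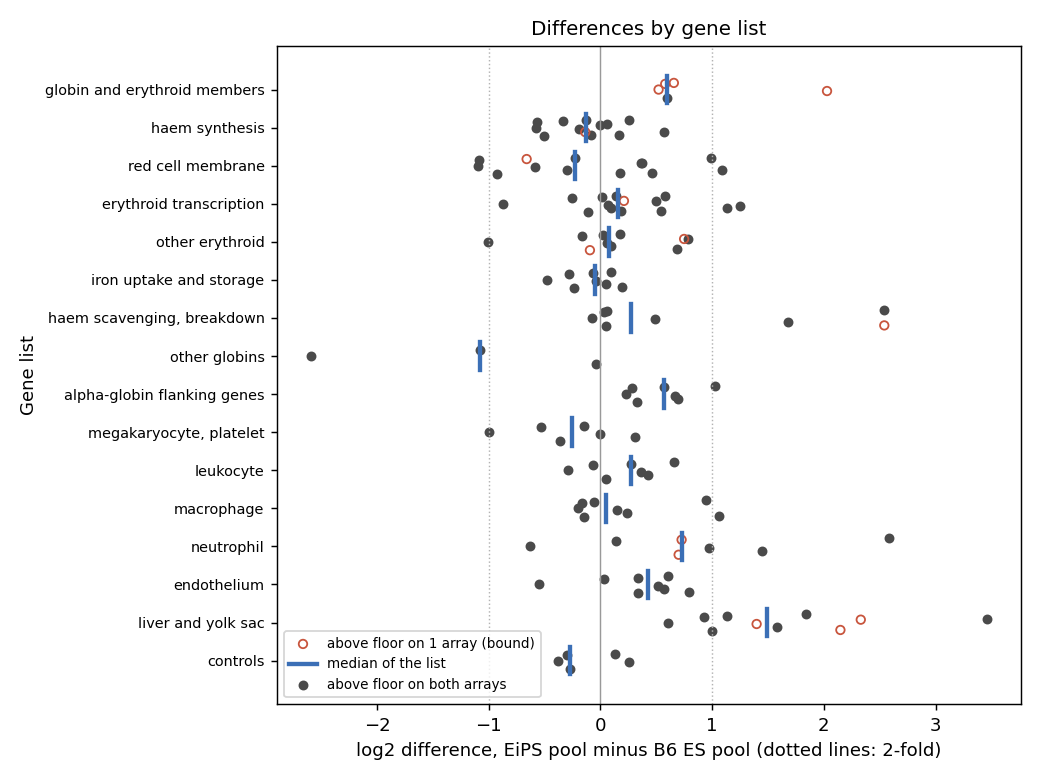
Log2 difference (EiPS minus B6 ES) of each measured gene by list, with filled points for genes above the floor on both arrays, open points for bounds, and a bar at each list's median; dotted lines mark 2-fold. Haem synthesis, iron and red cell membrane genes lie on both sides of 0, with medians from -0.23 to -0.05. All 10 liver and yolk sac genes lie above 0, 3 of them as bounds.

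Markers of other blood and vessel cells are given for comparison with the adult globin family signals, and the difference between them was not tested. Among all measured genes, 56.2% were higher in the EiPS pool by any amount. Neutrophil genes had a median of 0.73, with 6 of 7 higher and a summed signal of 1885 and 4956. Camp (5.49 and 42.8) and Ngp (21.8 and 42.0) exceeded the floor in the EiPS pool alone, so their direction carries no weight. The median is the bound of Camp. S100a9 was 6.00-fold higher, Ltf, which epithelia also make, 2.72-fold and S100a8 1.96-fold, while the granule enzyme gene Elane was 1.55-fold lower (45.3 and 29.2). Mpo was higher by 0.14 on the log2 scale but lower after quantile normalization and loess scaling (-0.11 in both), which leaves 5 of 7 higher there. Endothelial genes had a median of 0.43, with 7 of 8 higher, none at 2-fold and a summed signal of 2419 and 3206. Kdr (0.03) was lower after quantile, equal-median and loess scaling, which leaves 6 of 8, and Tek was 1.46-fold lower (204 and 139). Flt1, Pecam1 and Esam were 1.74-fold, 1.52-fold and 1.48-fold higher. For Flt1 this is the brightest of 3 probe sets, whose log2 differences ranged from 0.005 to 0.80. Leukocyte genes had a median of 0.27 (summed signal 2450 and 3055), with 5 of 7 higher and 2 lower. Laptm5, Ptprc and Spi1 were 1.58-fold, 1.34-fold and 1.28-fold higher. Vav1 was 1.22-fold lower (45.5 and 37.2), and Coro1a differed by -0.07 on the log2 scale. Cd53 (0.05) was lower after quantile and equal-median scaling. Macrophage genes had a median of 0.05, which turned to -0.04 after quantile normalization (summed signal 9577 and 13719), with 4 of 8 higher and 4 lower. Cd68 was 2.09-fold, Lyz2 1.93-fold and Mpeg1 1.18-fold higher, and Adgre1, Csf1r, Mrc1 and Cd14 were lower by up to 1.15-fold. Most of the gain in summed signal was that of Lyz2 (4102 and 7924). Megakaryocyte and platelet genes had a median of -0.26, with 5 of 6 lower (summed signal 1709 and 1578). Gp1bb, Gp5 and Itga2b were 1.995-fold, 1.44-fold and 1.29-fold lower, while the other Gp1bb probe set differed by -0.29 on the log2 scale. Treml1, also counted as lower, was nearly equal (42.3 and 42.1). Pf4, the brightest of the list, was 1.24-fold higher (566 and 701). Camp, Ngp, Elane, Mpo, Kdr, Tek, Vav1, Coro1a, Cd53, Adgre1, Csf1r, Mrc1, Cd14, Treml1 and Pf4 were named after their values were seen. The part of blood content, vessels or white cells in the globin signals was not tested.

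Genes that flank the alpha-globin cluster were looked at as well. RefSeq places Snrnp25, Rhbdf1, Mpg and Nprl3 next to Hba-x on chromosome 11, and these were higher in the EiPS pool by 0.23 to 0.69 on the log2 scale, with Rhbdf1 at 1.62-fold (543 and 877). Most alpha-globin enhancers lie within introns of Nprl3, which had signals of 176 and 207. The other measured genes of that list, Luc7l, Rgs11 and Axin1, flank the alpha cluster in other mammals but are on chromosome 17 in the mouse. Their differences were 0.28 to 1.03, with Luc7l at 2.04-fold and Rgs11 at 1.59-fold. Among all measured genes, 56.2% were higher in the EiPS pool by any amount.

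The control genes differed by less than the globin family signals. Tbp was higher by 0.26 on the log2 scale and Actb by 0.13, and Hprt, Ywhaz and Sdha were 1.30-fold, 1.23-fold and 1.21-fold lower in the EiPS pool by their brightest probe sets. Other probe sets went the other way, with a range from -0.40 to 0.29 over the 7 of Ywhaz and from -0.27 to 0.17 for Sdha. The control median was -0.27, and -0.05 with probe sets averaged. Actb was lower in the EiPS pool after quantile normalization.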

How the data were processed

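Gene expression was measured on 1 array per group. The authors deposited a linear signal intensity for each probe set, computed by MAS5 in Affymetrix Expression Console per the submitters' processing notes. Versions, settings and detection calls are not given in the notes used here. MAS5 subtracts mismatch signal, so low signals are noisy, and its scaling gives relative amounts.

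Of 22690 probe sets, 20380 had 1 gene symbol, 691 several and 1555 none, and 64 were controls. Symbols were updated by Entrez identifier (20351 matched) with a RefSeq table (GRCm38.p6). Each gene was represented by its brightest probe set, judged by mean log2 signal. The floor was the 90th percentile of 71 silent receptor probe sets. No test was run. Precision is limited by the single array per group.

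The genes and lists were chosen with earlier results of these data known. All chosen genes and controls were named, and in each other list every gene at least 2-fold different, with the largest differences until 3 were named. Alternatives were other floors, log2(signal + 64), quantile, equal-median and loess scaling (span 0.4), averaged probe sets, and leaving out shared probe sets. Protein sequences were not analysed here. The procedure was tested on simulated data, with differences planted only in genes whose B6 ES signals lay well above the floor. That test did not cover the floor or the bounds. Python 3.11.15 with pandas 2.3.3 and statsmodels 0.14.6 was used.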

Additional observations from a re-analysis of the deposited data

How the results depend on the processing

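Of 302 values recomputed under 10 alternatives, 270 moved by less than a set limit and 32 moved by more. The limit was the SD between probe sets (0.40 on the log2 scale), and 1.5 times for counts. For the share of 2-fold differences that were higher it was 10 percentage points. Values that an alternative left without a measurement are not among the 302 and were not counted as moved. Those of Hba-x, Hbb-y and Slc4a1 were lost in this way with the floors at the 98th percentile and at 100. The count of the chosen genes at least 2-fold higher was 1, and it was 3 with no floor, 2 with probe sets averaged, and 0 with a floor of 100 or with log2(signal + 64). The 7 probe sets that crossed the floor became 2 with the floor at the 98th percentile and 1 with a floor of 100. Over all genes, 635 were at least 2-fold higher and 334 lower. With no floor these were 1249 and 720, with log2(signal + 64) 246 and 187, and with a floor of 100, 305 were higher. The share of 2-fold differences that were higher was 65.5%, and was 53.01% after quantile normalization and 52.5% with equal medians. The other-globin median was -0.27 with a floor of 100 and -0.61 with log2(signal + 64), and that of liver and yolk sac 0.93 and 1.06. The neutrophil median was 1.44 with floors at the 98th percentile and at 100, which left fewer genes. Higher floors and the added constant shrink differences of low signals by construction. Where a value remained, no alternative turned the direction of a globin family signal or of a chosen gene measured with the main floor. The family signals lay above every floor, and an added constant keeps the order of signals. Only quantile, equal-median and loess scaling could thus have turned the family signals. For Alas2, Hba-x, Hbb-y and Slc4a1, another floor or none could only keep them higher or leave them out. Their unchanged direction under other floors thus carries no weight. With no floor Epb42 was compared as well, and was lower in the EiPS pool (8.36 and 5.11). No paired analysis was possible because each group has 1 array. Signals near the floor limit every statement on the embryonic globins and Slc4a1.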
